A study of Mus musculus with 7 samples.

Results

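The interleukin-1 family genes described here are 10 of the 21154 named genes with a probe on the array. They are the ligands Il1a, Il1b, Il33 and Il18, the receptor antagonist Il1rn, the receptor chains Il1r1, Il1rap, Il1rl1 and Il18r1, and the decoy receptor Il1r2. Members were chosen by gene symbol, through the RefSeq transcript that each probe was designed for, and 14 probes were found for them. Expression was measured on 1-colour Agilent arrays in the heart apex of male C57BL/6 mice, 3 p38α knockout (KO) hearts and 4 control hearts. Both groups were homozygous for a floxed allele of Mapk14, the gene of the stress-activated kinase p38α, with loxP sites around exons 2 and 3. KO mice also carried 1 copy of α-MHC MerCreMer, a Cre recombinase that acts in cardiomyocytes once tamoxifen is given. Controls lacked this transgene, so that deletion of p38α and presence of Cre cannot be told apart. All mice received 500 µg hydroxytamoxifen per day for 10 days at 6 weeks of age, and angiotensin II, a peptide that raises blood pressure, at 1.5 mg/kg per day by osmotic minipump for 48 hours. Hearts were taken at 3 months, and no group without angiotensin II or without the floxed allele was analysed here. The study's design speaks of 4 hearts per group, and the other KO heart was not analysed here.

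The interleukin-1 family works through small sets of agonists, receptors and brakes. Interleukin-1α and interleukin-1β bind the receptor encoded by Il1r1, which recruits the accessory chain encoded by Il1rap and signals through MyD88 to NF-κB and p38. The product of Il1rn occupies the same receptor without signalling, and the product of Il1r2 binds the agonists but lacks the intracellular signalling domain. Interleukin-33 and interleukin-18 use the receptors encoded by Il1rl1 and Il18r1, and are held back by a soluble form of the Il1rl1 product and by interleukin-18 binding protein, encoded by Il18bp. In injured hearts interleukin-1β is known for driving inflammation, whereas interleukin-33 is known for signalling between fibroblasts and cardiomyocytes.

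Levels are given as log2 of the processed signal relative to the array's 75th percentile, so that 0 is that percentile, and differences are KO minus control on the log2 scale ± standard error of the fit. The level of 1 probe cannot be set against that of another. On each array 46.0% to 49.7% of 55681 probes were well above background, as flagged by the scanner software. A probe without that flag is called below the background limit. The brighter of 2 Mapk14 probes gave 3.74, 3.76 and 3.71 in KO hearts and 3.52, 3.40, 3.47 and 3.67 in controls (0.22 ± 0.12, adjusted p = 0.202, limma). The other gave -2.20, -2.45 and -2.33 in KO hearts and -2.63, -2.44, -2.60 and -2.35 in controls. Where the probes lie in the transcript is not given in the files used here, so they do not check the deletion of exons 2 and 3. The brightest Esr1 probe gave -0.82, 0.07 and 4.50 in KO hearts, and lay below the background limit in all 4 controls. The other Esr1 probes were below that limit in all hearts, KO hearts included. Esr1 encodes the oestrogen receptor, whose ligand-binding domain flanks Cre in MerCreMer. Both rows of the 1 slide held KO and control arrays.

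Among the 10 members, 7 could be tested, 4 of these were higher in KO hearts, 0 were lower and 3 did not pass. The 4 were Il1b, Il18, Il1r1 and Il1r2, and in each the KO and control hearts did not overlap. Testing used limma with Benjamini-Hochberg adjustment over all 22344 features, at a threshold of 0.05. In that fit 25.2% of all features passed, 10.2% as higher and 15.0% as lower in KO hearts, and the groups did not overlap for 39.0% of the 22302 features with a value on every array. At an unadjusted p under the same threshold, 5 members were higher and 0 lower, the fifth being Il1rap. The share of all features at that unadjusted p is not given here, so unadjusted counts in this text are descriptions only. The apex holds several cell types, and more cells of a type and more RNA per cell cannot be told apart in it. The median difference was 0.96 over the 7 tested members and -0.06 over all features. A probe was tested if 3 or more arrays of 1 group showed it well above background, and Il1r2 and Il1rap met this through the KO arrays alone, so this count and median are a description only. The other 3 members, Il1a, Il1rn and Il18r1, did not meet it.

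**Figure D1:**
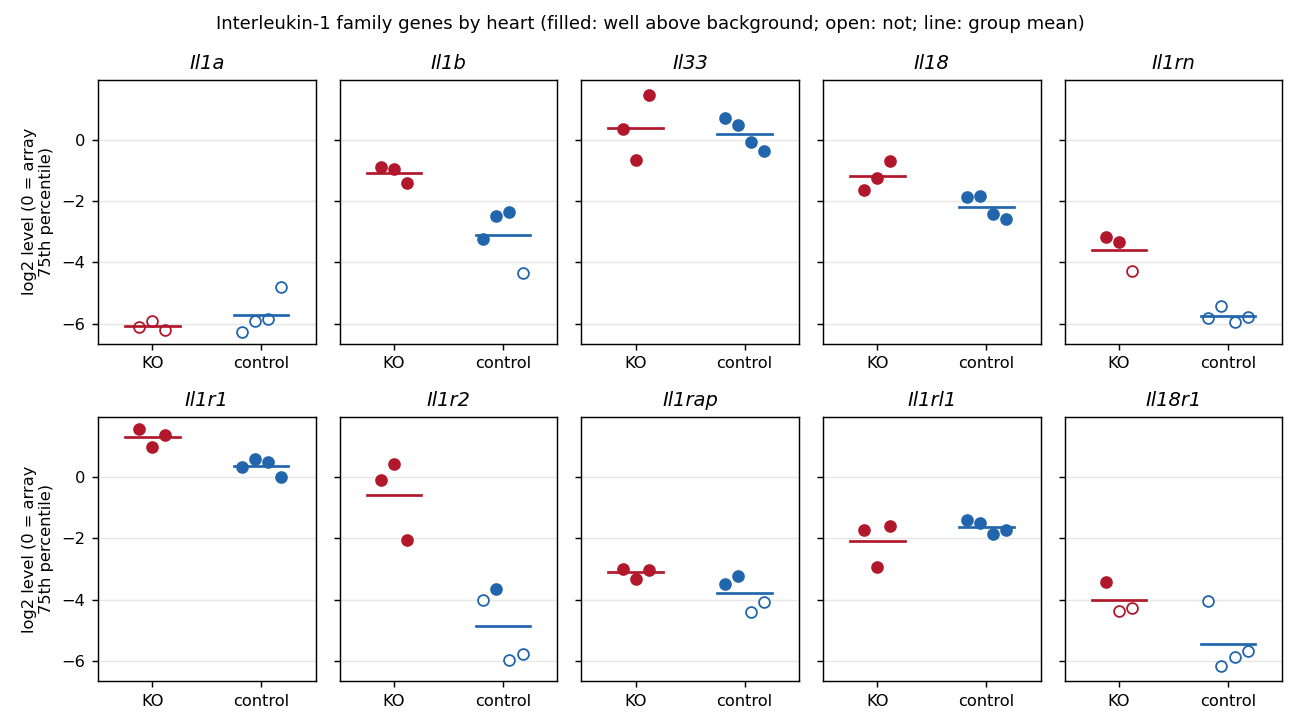
Level of each interleukin-1 family gene in each heart, as log2 relative to the array's 75th percentile, with KO hearts (n = 3) left of control hearts (n = 4), filled points for hearts in which the probe was well above background, open points for the others, and a line at the group mean. The KO hearts lie above all controls for Il1b, Il18, Il1r1 and Il1r2, and for Il1rn, whose control points are all open, while Il33, Il1rap, Il1rl1 and Il18r1 overlap and Il1a is open in every heart.

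Of the interleukin-1 agonists, Il1b was higher in KO hearts and Il1a was below the background limit throughout. Il1b, the inducible agonist made mainly by activated myeloid cells, had levels of -0.91, -0.95 and -1.41 in KO hearts and of -3.22, -2.50, -2.35 and -4.36 in control hearts. The highest control heart lay below the lowest KO heart, and control 4 stood lowest of all. The difference was 2.02 ± 0.46 (95% interval 0.96 to 3.07), or 4.05-fold, with an adjusted p of 0.0213 (limma). The Il1b probe was printed at 10 spots per array, which gave a check within each array that the other members lack. The SD between spots was 0.0984 to 0.117 in KO hearts and 0.0694 to 0.375 in control hearts on the log2 scale, which is noise within an array. The SD between hearts was 0.28 in KO hearts and 0.92 in control hearts. In control 4 none of the 10 spots was well above background (0 of 10), whereas all spots kept on the other 6 arrays were. Within slide row 1, with 1 KO and 2 control hearts, Il1b differed by 1.95, and within row 2, with 2 of each, by 2.17. The adjusted p was 0.0922 without KO 1 and 0.0640 without KO 2, at differences of 1.93 and 1.95, and 0.0612 where dim probes were not filtered out. With normexp background correction, another way to handle dim signals, the difference was 1.05 and still passed.

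Il1a, the agonist that cells hold preformed and release on damage, gave -6.09, -5.89 and -6.21 in KO hearts and -6.25, -5.92, -5.84 and -4.79 in controls. Its probe stayed below the background limit in all 7 hearts, and Il1a was not tested.

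Il33 did not differ beyond the spread between hearts. Its product is a nuclear alarmin released from stromal and endothelial cells. Levels were 0.34, -0.66 and 1.47 in KO hearts and 0.70, 0.48, -0.09 and -0.38 in control hearts. The KO hearts included both the lowest and the highest of the 7 values. The difference was 0.21 ± 0.48 (95% interval -0.91 to 1.32, adjusted p = 0.766, limma), and it turned to -0.34 without KO 3. This interval does not show that the groups were alike.

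Il18 was higher in KO hearts. It encodes a cytokine stored as an inactive precursor, cut by caspase-1, and known for driving interferon-γ production. Levels were -1.64, -1.25 and -0.69 in KO hearts and -1.89, -1.84, -2.42 and -2.60 in control hearts. The groups did not overlap, though KO 1 lay close to controls 1 and 2. The difference was 0.99 ± 0.28 (95% interval 0.35 to 1.64), or 1.99-fold, with an adjusted p of 0.0371 (limma). Within slide row 1 it was 0.23 and within row 2 it was 1.54. With normexp correction the difference was smaller, at 0.51, with an adjusted p of 0.0392 (limma). The call was lost in 8 of 17 alternative settings, which included leaving out any of KO 1, KO 2, KO 3, control 1, control 3 or control 4, at adjusted p of 0.0538 to 0.0878.

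Il18bp, a gene outside the 10 members that encodes the secreted protein that traps interleukin-18, was lower in KO hearts. Its levels were 0.28, 0.42 and 1.03 in KO hearts, against 2.07, 1.84, 1.87 and 2.02 in controls. Control hearts spanned a narrow range, and all 3 KO hearts lay below it. The difference was -1.37 ± 0.19, or 2.59-fold lower, with an adjusted p of 0.0121 (limma). Without KO 1 it was -1.23 with an adjusted p of 0.0633, and with replicate number as a block -1.35 with an adjusted p of 0.0602. Within the slide rows it was -1.67 and -1.22.

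The promoter sequences of the agonist and brake pairs whose ratios did not overlap between groups, Il1b with Il1r2 and Il18 with Il18bp, are shown as the start regions of these 4 genes. Each run is the 250 bases before the RefSeq transcript start in GRCm38.p6, written 5′ to 3′ along the gene's strand, with C/EBP motif matches in capitals.
Il1b, chr2:129371140-129371389, minus strand: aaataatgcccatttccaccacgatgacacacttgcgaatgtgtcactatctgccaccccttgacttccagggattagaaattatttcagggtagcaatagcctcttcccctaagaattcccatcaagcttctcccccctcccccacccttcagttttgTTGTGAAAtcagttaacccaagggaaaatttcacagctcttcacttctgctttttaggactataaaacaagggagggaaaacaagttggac
Il1r2, chr1:40085843-40086092, plus strand: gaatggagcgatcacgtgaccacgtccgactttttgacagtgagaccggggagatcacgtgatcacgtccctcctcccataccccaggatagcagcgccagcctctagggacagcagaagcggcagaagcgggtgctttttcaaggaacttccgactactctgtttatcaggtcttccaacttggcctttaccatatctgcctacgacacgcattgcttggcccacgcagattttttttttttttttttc
Il18, chr9:50554450-50554699, plus strand: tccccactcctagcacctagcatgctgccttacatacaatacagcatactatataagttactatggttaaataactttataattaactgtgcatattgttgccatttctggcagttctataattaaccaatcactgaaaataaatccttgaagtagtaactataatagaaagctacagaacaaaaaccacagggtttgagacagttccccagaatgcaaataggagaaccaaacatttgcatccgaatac
Il18bp, chr7:102018233-102018482, minus strand: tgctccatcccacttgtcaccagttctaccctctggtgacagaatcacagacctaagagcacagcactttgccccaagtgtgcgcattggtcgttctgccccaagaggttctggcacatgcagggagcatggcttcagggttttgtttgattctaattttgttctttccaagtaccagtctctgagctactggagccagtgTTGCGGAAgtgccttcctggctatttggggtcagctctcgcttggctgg
Motifs were searched on both strands as AP-1 TGANTCA, C/EBP TTNNGNAA and NF-kB GGGA followed, after any 1 base, by TTTCC, where N is any base. Il1b held 1 C/EBP match, TTGTGAAA, and Il18bp held 1, TTGCGGAA. Il1r2 and Il18 held 0 matches of the 3 motifs. Il1r2 differed in base composition, with 14 CG pairs in its window, against 2 in Il1b, 1 in Il18 and 4 in Il18bp. Of 17 promoters of the 10 members, 10 held a C/EBP match, 2 an AP-1 match and 0 an NF-kB match. The C/EBP matches were found for Il1a, Il1b, Il1r1, Il1rl1, Il1rn and Il33, and the AP-1 matches for Il1a and Il1rn. Some members have more than 1 promoter, and no test was made. Of 32851 mouse promoters of this length, 36.8% held the C/EBP motif, 6.75% the AP-1 motif and 0.356% the NF-kB motif. A match describes the letters only, and says nothing of binding.

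Il1rn, the receptor antagonist, was detected in KO hearts only in part and in no control. Levels were -3.19, -3.35 and -4.28 in KO hearts and -5.82, -5.43, -5.95 and -5.77 in controls. The probe, designed for transcript NM_001039701, was well above background in KO 1 and KO 2, not in KO 3, and on 0 of 4 control arrays. Set against the lowest signal that counted as above background in each control, the KO mean of Il1rn was 1.41-fold higher. This is no strict lower bound, since that mean includes KO 3, which was itself below the background limit. Leaving out 1 heart at a time moved this fold between 1.22 and 1.78, the latter without KO 3. The measured means were -3.61 ± 0.59 in KO hearts and -5.75 ± 0.22 in control hearts (SD, n = 3 and 4), and Il1rn was not tested.

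Among the receptors, Il1r1 was higher in KO hearts. It encodes the signalling receptor for both interleukin-1 agonists and is expressed by fibroblasts and endothelial cells among others. Levels were 1.56, 0.98 and 1.36 in KO hearts and 0.31, 0.59, 0.48 and -0.01 in control hearts, well above background on all 7 arrays. The lowest KO heart lay above the highest control heart. The difference was 0.96 ± 0.20 (95% interval 0.49 to 1.42), or 1.94-fold, with an adjusted p of 0.0181 (limma). Within the slide rows it was 1.11 and 0.94. The call was lost without KO 1, at 0.83 and an adjusted p of 0.0867, and with no filter, at an adjusted p of 0.0552. With replicate number as a block it was lost too, at 0.84 and an adjusted p of 0.0973.

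Il1rap, the accessory chain shared by the interleukin-1 and interleukin-33 receptors, did not pass. The probe for NM_134103, the accession of a transcript for the soluble form, gave -2.99, -3.32 and -3.02 in KO hearts and -3.49, -3.23, -4.40 and -4.06 in control hearts. It was well above background on 3 of 3 KO arrays and 2 of 4 control arrays, and the groups overlapped through control 2. The difference was 0.69 ± 0.28 (95% interval 0.04 to 1.33, adjusted p = 0.103, limma). With slide row as a block it was 0.78 with an adjusted p of 0.0224, and without control 2 it was 0.87 with an adjusted p of 0.0374. The probe for NM_008364, the accession of a membrane form, was below the background limit in all hearts.

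Il1rl1, the interleukin-33 receptor gene, did not pass either. The probe used, designed for NM_001025602, the accession of the membrane form, gave -1.73, -2.92 and -1.61 in KO hearts and -1.41, -1.49, -1.87 and -1.72 in control hearts. KO 2 alone lay below the controls, and the other KO hearts lay within their range. The difference was -0.47 ± 0.31 (95% interval -1.19 to 0.26, adjusted p = 0.289, limma), and -0.05 without KO 2. Another probe for the same transcript, and the probe for NM_010743, the accession of the soluble form, were below that limit in all hearts. Where these probes lie in the transcripts is not given in the files used here, so a detected probe cannot be assigned to 1 isoform.

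Il18r1, which encodes the ligand-binding chain of the interleukin-18 receptor, was well above background in KO 1 only. Its brighter probe gave -3.43, -4.37 and -4.26 in KO hearts and -4.05, -6.16, -5.86 and -5.67 in controls, and control 1 lay among the KO values. The fold found in the same way as for Il1rn came to 1.04, and to 0.849 without KO 1 and 0.964 without control 2, so it gives no direction. Its other probe was below the background limit in all hearts.

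The decoy receptor Il1r2 was higher in KO hearts, by an amount that the control signals do not fix. Its product takes up interleukin-1 without signalling and is best known from neutrophils and from alternatively activated macrophages. Levels were -0.10, 0.44 and -2.07 in KO hearts and -4.00, -3.64, -5.96 and -5.78 in control hearts. The probe was well above background on all 3 KO arrays and on 1 of 4 control arrays, that of control 2. KO 3 stood between the other KO hearts and the controls. The other 3 control values were below the background limit, and Il1r2 met the filter through the KO arrays alone. The fitted difference was 4.26 ± 0.76 (95% interval 2.50 to 6.03, adjusted p = 0.0143, limma), and 2.04 with normexp correction, so that neither is an exact size. Without KO 3 it was 5.01, and within the slide rows it was 3.72 and 5.05. The call was lost without KO 1, at 4.03 and an adjusted p of 0.0721, and without KO 2, at 3.76 and an adjusted p of 0.0507.

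**Figure D2:**
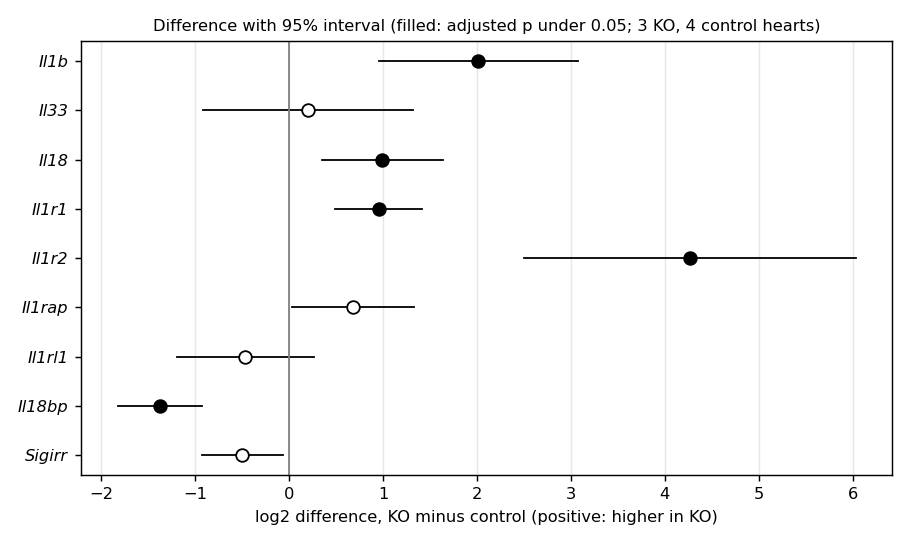
Difference in log2 level, KO minus control, with its 95% interval from the fit over 3 KO and 4 control hearts, for the 7 tested members and for Il18bp and Sigirr, with filled points where the adjusted p was under 0.05. Il1r2, which was below the background limit in 3 of 4 controls, lies at 4.26, Il18bp lies at -1.37, and the intervals of Il33 and Il1rl1 include 0.

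Several members lie side by side in the genome. In the RefSeq gene order of GRCm38, Il1r2, Il1r1, Il1rl2, Il1rl1, Il18r1 and Il18rap follow one another on chromosome 1, apart from a long non-coding RNA and a pseudogene. Within this cluster Il1r2 differed by 4.26, Il1r1 by 0.96 and Il1rl1, which did not pass, by -0.47, and whether these differ from each other was not tested. Il1rl2 and Il18rap, the receptor chains for interleukin-36 and interleukin-18, were below the background limit in all hearts. Il1a, Il1b and Il1rn lie on chromosome 2, Il18 on chromosome 9, Il1rap on chromosome 16 and Il33 on chromosome 19.

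To compare agonists with their brakes, the log2 ratio of 5 gene pairs was formed within each heart and tested by exact permutation (two-sided) of the 35 ways to choose 3 of 7 hearts, for which the smallest p is 0.0286. For 3 of the 5 pairs the groups did not overlap. The groups did not overlap for 39.0% of single features, and the share over other gene pairs is not given here. This count is therefore a description only. A ratio within an array shows an unequal change of its 2 genes, not the amount of either.

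As measured, the ratio of Il1b to its decoy Il1r2 was lower in KO hearts. Relative to the control mean it was -2.54, -3.13 and -1.08 in KO hearts and -0.96, -0.60, 1.88 and -0.32 in controls. KO 3 lay just below control 1, in which Il1r2 was below the background limit. The difference was -2.25 (exact permutation p = 0.0286, adjusted over the 5 pairs 0.0476), and -0.99 with normexp correction (adjusted p = 0.0714). The raw p was 0.0571 with normexp correction, with quantile normalization and with the authors' value table (exact permutation).

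The ratio of Il1r1 to Il1r2, the signalling receptor to the decoy, was also lower in KO hearts. It was -3.52, -4.64 and -1.76 in KO hearts, against -0.87, -0.96, 1.25 and 0.58 in controls, relative to the control mean. The difference was -3.31 (exact permutation p = 0.0286, adjusted 0.0476), and -1.16 with normexp correction (adjusted p = 0.0714). Both ratios rest on Il1r2, which was below the background limit in 3 of 4 controls, so that no fold is given and their sizes are not exact. Il1r2 met the filter through the KO arrays alone, so the p-values of both ratios are a description only. In control 4 Il1b was below that limit as well, so both signals of its Il1b to Il1r2 ratio lay near background.

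The ratio of Il18 to Il18bp was higher in KO hearts, by an amount that varied little between them. It was 2.22, 2.46 and 2.42 in KO hearts, against 0.18, 0.46, -0.16 and -0.49 in controls, relative to the control mean. All 3 KO hearts lay well apart from the controls. The difference was 2.37, or 5.16-fold (exact permutation p = 0.0286, adjusted 0.0476), and both probes were well above background on all 7 arrays. Within the slide rows it was 1.90 and 2.76, whereas Il18 alone differed by 0.23 and 1.54. With normexp correction the ratio differed by 1.81, with a raw p of 0.0286 and an adjusted p of 0.0714 (exact permutation). Leaving out any heart takes the smallest possible p to 0.0667 or above, so no call could be made there, and the differences for this ratio then lay between 2.20 and 2.52.

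The other pairs did not pass. The ratio of Il1b to Il1rn differed by -0.12 (exact permutation p = 0.771, adjusted 0.771), with Il1rn below background in all controls. With normexp correction this ratio differed by 0.66, with a raw p of 0.0286 and an adjusted p of 0.0714 (exact permutation). The ratio of Il33 to Il1rl1 was 0.27, 0.46 and 1.28 in KO hearts and 0.31, 0.17, -0.02 and -0.46 in controls, relative to the control mean, and KO 1 lay within the control range. It differed by 0.67 (exact permutation p = 0.0857, adjusted 0.107).

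**Figure D3:**
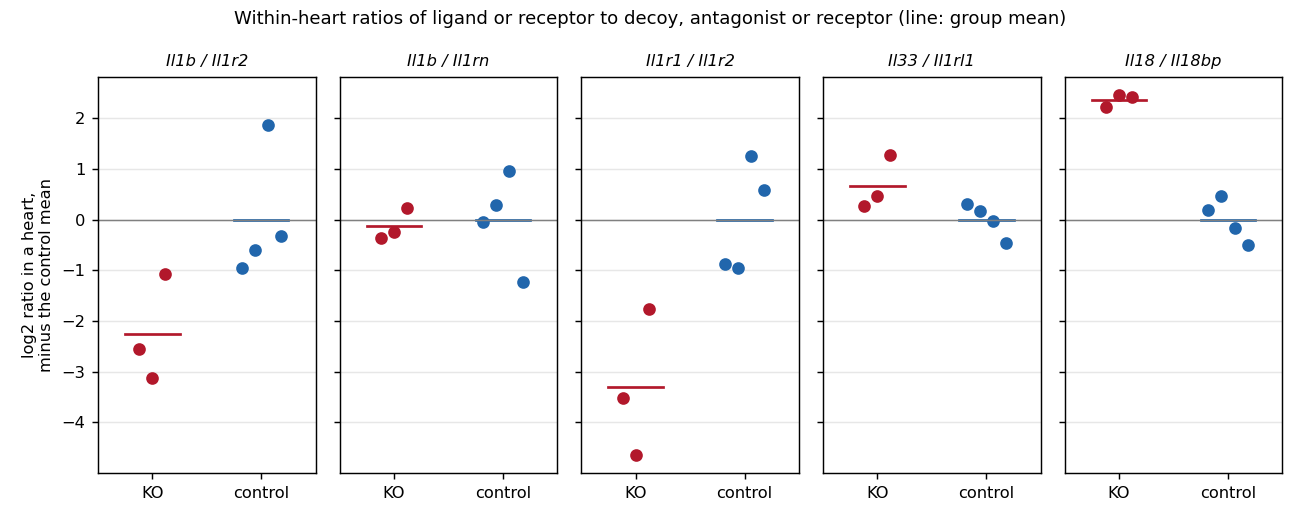
Log2 ratio of 5 gene pairs in each heart, minus the mean of that ratio over the 4 controls, with KO hearts (n = 3) left of control hearts (n = 4) and a line at the group mean. Il18 over Il18bp lies between 2.22 and 2.46 in KO hearts, and Il1b over Il1r2 and Il1r1 over Il1r2 lie below the controls, with KO 3 nearest to them.

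Further genes of the pathway were described with a list of 68, of which 64 had a named probe and 52 could be tested. Of these, 11 were higher and 2 lower in KO hearts, with a median difference of 0.32. The 13 that passed are a share near the 25.2% of all features, and nothing is read from it for the list. Without KO 1 the count of 13 became 0, where 16 had an unadjusted p under 0.05, without KO 2 it was 3, without control 1 it was 7 and without control 3 it was 8.

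Among other family genes 2 were tested, Il18bp and Sigirr. Sigirr, which encodes a receptor with a single immunoglobulin domain that restrains interleukin-1 signalling, gave -0.05, 0.00 and 0.09 in KO hearts and 0.30, 0.19, 0.80 and 0.76 in control hearts. The groups did not overlap, but the difference of -0.50 ± 0.19 had an adjusted p of 0.0831 (limma), and of 0.0213 with slide row as a block and 0.0399 without control 2. Il18rap, Il1f10, Il1rl2, Il1rapl1 and Il1rapl2 were below the background limit in all hearts, and the interleukin-36 genes had no named probe.

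None of the 12 tested genes for processing and release of the cytokines passed (limma), and 2 had an unadjusted p under 0.05. These were Gsdmd, the pore-forming gasdermin, with 0.40 ± 0.13 and an adjusted p of 0.0505, and Mefv, the inflammasome sensor pyrin, with 3.00 ± 0.98 and an adjusted p of 0.0574. Mefv was well above background on 3 KO and 2 control arrays. It met the filter through the KO arrays alone, so its size is not exact. Casp1, the protease that cuts the interleukin-1β and interleukin-18 precursors, was 0.47, 0.79 and 1.08 in KO hearts and 0.65, 0.65, 0.34 and 0.58 in controls, a difference of 0.23 ± 0.17 (adjusted p = 0.349). Nlrp3, the inflammasome sensor best known in the heart, was well above background on 0 KO and 2 control arrays and was not tested.

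Of 20 signalling genes 2 were higher and 1 lower in KO hearts, with a median of 0.06. Myd88, the adaptor of the signalling receptors of the family, had levels of 2.25, 2.04 and 1.91 in KO hearts and 1.25, 1.57, 1.32 and 1.08 in control hearts. The groups did not overlap, and the difference was 0.76 ± 0.16 (adjusted p = 0.0183, limma). Irak4, the kinase that Myd88 recruits, differed by 0.62 ± 0.17 (adjusted p = 0.0330), and Map3k7, the kinase TAK1 upstream of NF-κB and p38, by -0.43 ± 0.12 (adjusted p = 0.0393). The calls for Irak4 and Map3k7 were lost in 9 and 10 of 17 alternative settings, and that for Myd88 in 4.

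Of 18 tested genes known as targets of interleukin-1 signalling, 9 were higher in KO hearts and 0 lower, with a median of 1.20, and at an unadjusted p under 0.05 these counts were 14 and 0 (limma). Over all features 10.2% were higher and 15.0% lower, with a median of -0.06. Among the target genes the 6 with the lowest p were Mmp3, Cxcl5, Lcn2, Ccl7, Saa3 and Ptgs2. The other target genes past the threshold were Ccl2, Nfkbiz and Vcam1. Mmp3, the matrix protease stromelysin, had levels of 3.49, 3.41 and 3.46 in KO hearts and of 1.32, 1.77, 0.96 and -0.17 in control hearts, a difference of 2.48 ± 0.41 (adjusted p = 0.0125, limma). The 3 KO hearts were nearly equal, while the controls spread over a wide range. The acute phase gene Saa3 was 4.09 ± 0.98 and the siderophore-binding gene Lcn2 was 2.80 ± 0.66 higher. The neutrophil-attracting chemokine gene Cxcl5 differed by 2.68 ± 0.62, the monocyte-attracting Ccl7 by 2.31 ± 0.55 and the prostaglandin synthase gene Ptgs2 by 1.63 ± 0.40. Adjusted p ranged from 0.0125 for Mmp3 to 0.0261 for Ptgs2 over these 6. All 6 calls were lost without KO 1, and all but that of Mmp3 without KO 2. With normexp correction Saa3 differed by 2.60, Cxcl5 by 2.07 and Ptgs2 by 0.96, and without control 4 Saa3 differed by 3.25, Lcn2 by 2.20 and Cxcl5 by 2.10, and without KO 2 Saa3 differed by 3.30 and without KO 3 by 4.69. Calls were also lost without control 1 for Ccl7 and without control 3 for Lcn2 and Ptgs2. Il6 was 0.11, -0.66 and -1.01 in KO hearts and -2.43, -1.76, -1.04 and -5.20 in controls, and its difference of 2.09 ± 0.89 did not pass (adjusted p = 0.113). The list was chosen with earlier results of these hearts known, and its count is not independent evidence that interleukin-1 signalling differed.

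**Figure D4:**
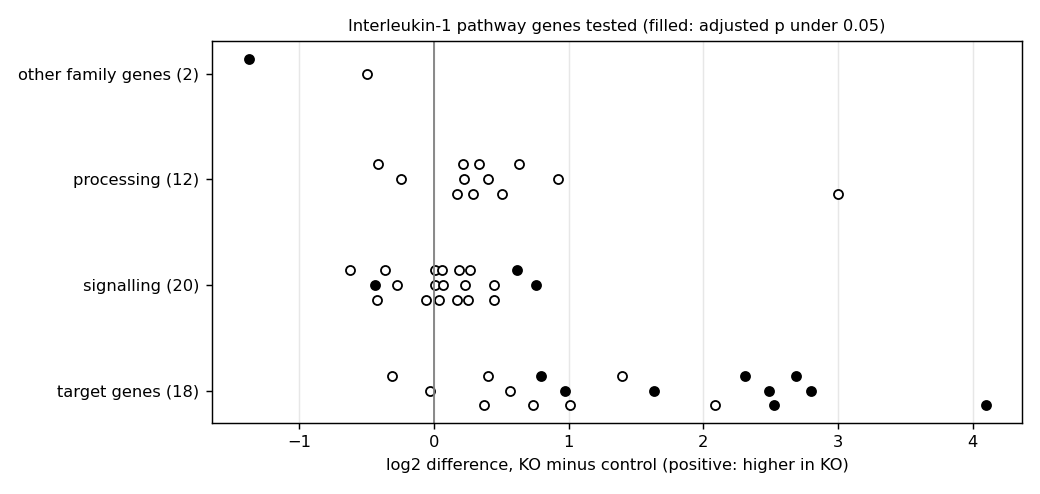
Difference in log2 level, KO minus control, for the 52 tested interleukin-1 pathway genes that are no members, in 4 rows by role, with filled points where the adjusted p was under 0.05. Of the target genes 9 of 18 are filled and lie to the right of 0, of the processing genes 0 of 12 are filled, and the filled point at the far left is Il18bp at -1.37.

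Genes whose pattern over the 7 hearts was most like that of a member were found as the smallest root mean square distance between mean-centred log2 levels among 13672 named genes. For Il1b these were Ccl7 at 0.230, the platelet and endothelial selectin Selp at 0.238 and the interleukin-17 receptor gene Il17ra at 0.256. For Il1r1 they were Bhlhe41 at 0.118, Ttc37 at 0.125 and Carhsp1 at 0.133. For Il1r2 they were Tent5b at 0.633, Plcxd2 at 0.650 and Pak3 at 0.650, distances above those found for the other 3 members. Levels were centred but not scaled, so distances can be larger for genes with larger differences, and Il1r2 had the largest of these members. For Il18 they were the Fc receptor gene Fcgr3 at 0.146, the C-type lectin gene Clec4a1 at 0.182 and Mcub at 0.189.

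Of 12 neutrophil markers 8 were tested and 6 were higher in KO hearts, namely S100a8, S100a9, Cxcr2, Mmp8, Mmp9 and Fpr1. Cxcr2, Mmp8, Mmp9 and Fpr1 met the filter through the KO arrays alone, so this count is a description only. Over all features 10.2% were higher and 15.0% lower, beside which this count and those of the other cell types stand. S100a8, which encodes a calgranulin, was 2.24, 2.78 and -0.49 in KO hearts and -1.83, -1.24, -2.08 and -2.13 in control hearts. Fpr1, the formyl peptide receptor gene, was -0.38, -0.46 and 0.26 in KO hearts and -3.02, -2.69, -3.84 and -5.02 in controls. KO 3 was the lowest KO heart for Il1r2, S100a8, S100a9 and Cxcr2, but the highest for Fpr1, Il18 and Il33. Cxcr2, Mmp8 and Mmp9 were not well above background in any control, Ngp and Ltf not on any array, and Ly6g had no named probe. Summed over 11 markers, in units of each array's 75th percentile, the list came to 102 to 179 in KO hearts and 114 to 177 in controls, where Csf3r made up most of it. Without Csf3r, a choice made after its values were seen, the sum was 25.0, 33.1 and 5.02 in KO hearts and 1.57 to 2.56 in controls, and did not overlap.

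Of 11 tested monocyte and macrophage markers 3 were higher in KO hearts, namely Cd14, Fcgr1 and Mrc1, and 0 were lower, while 5 were higher and 1 lower at an unadjusted p under 0.05. Their sum was 125 to 184 in KO hearts and 120 to 134 in controls and overlapped, and each of the 11 was well above background on at least 1 array. Of 5 tested mast cell and basophil markers 0 passed (limma), with 2 at an unadjusted p under 0.05, in opposite directions. Their sum was 1.72 to 3.00 in KO hearts and 1.58 to 2.26 in controls, and Ms4a2 and Mcpt8 were below the background limit in all hearts. Of 5 tested lymphoid markers 1 passed, Il7r, with none of the 4 controls above background for it, and Cd3g, Cd8a, Ncr1 and Klrb1c were below the background limit in all hearts. The lymphoid sum was 4.24 to 4.81 in KO hearts and 4.54 to 5.76 in controls. The 1 B cell marker tested did not pass, with a sum of 0.409 to 0.774 in KO hearts and 0.259 to 0.453 in controls.

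Of 8 fibroblast markers Pdgfra was higher and Dpt lower in KO hearts, and the sums overlapped at 274 to 660 in KO hearts and 342 to 583 in controls. Of 7 endothelial markers Kdr was lower, with sums of 37.96 to 50.84 in KO hearts and 41.5 to 66.3 in controls. Of 9 cardiomyocyte markers Tnni3, Ryr2, Ttn and Pln were lower and 0 higher, with sums of 4284 to 5031 in KO hearts and 5008 to 6336 in controls. All 9 cardiomyocyte markers were well above background in all 7 hearts, which are labelled as heart apex. The part of these cell types in the differences of Il1b, Il1r1, Il1r2, Il18 and Il18bp was not tested.

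**Figure D5:**
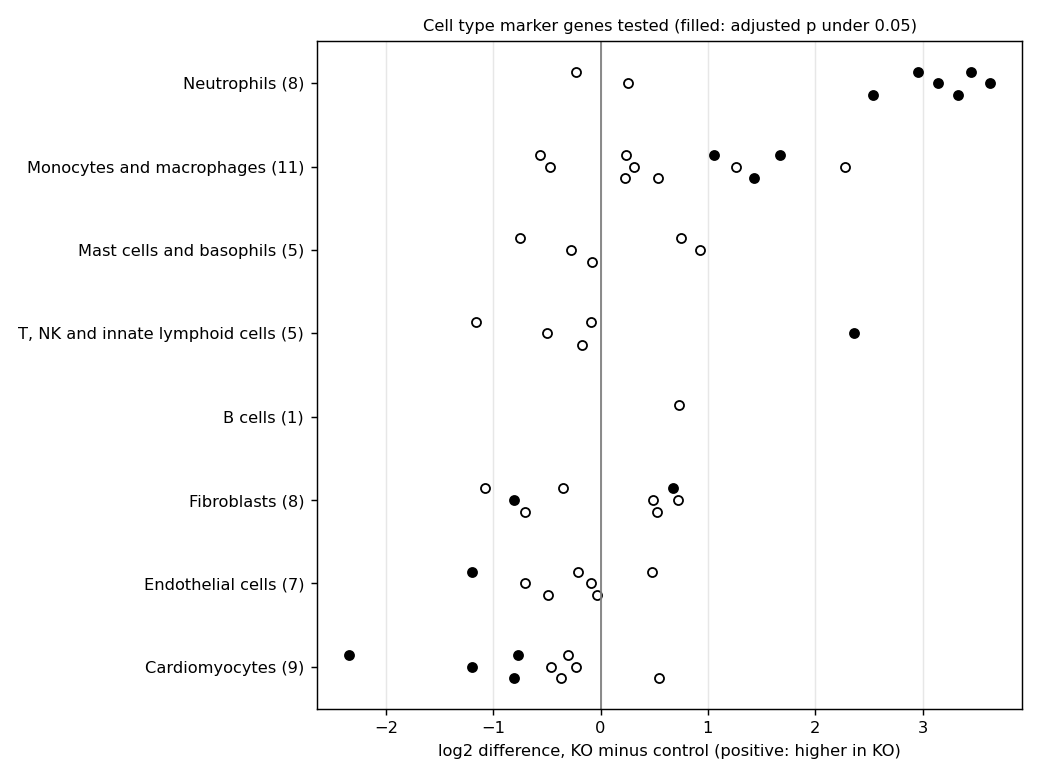
Difference in log2 level, KO minus control, for the tested marker genes of 8 cell types, with the number tested in brackets and filled points where the adjusted p was under 0.05. The filled neutrophil markers lie farthest to the right, and the 4 filled cardiomyocyte markers lie left of 0, as do most of the open ones. Cxcr2, Mmp8, Mmp9 and Il7r were not well above background in controls, so that their points are fitted values near background.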

How the data were processed

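Total RNA of 7 heart apices (3 KO, 4 control) was labelled with Cy3, 100 ng each, per the labels' protocols. Each label names its own heart, which was read as 1 animal; if hearts were shared, p-values measure technical spread. Per the file headers, Agilent Feature Extraction 11.0.1.1 read the arrays, whose design is of build mm9. The deposited scanner files hold, per the file headers, the intensity of 62976 spots per array, 3671 of them control spots, and the processed signal, from which the software had subtracted background, was taken. The authors' deposited table of log2 values served as an alternative. Its columns correlated at 0.986 to 0.998 with median-centred scanner values and had medians of 0, except 0.00793 for control 4 and -0.00210 for KO 2. Its direction is that of the signal and its probes were centred, while the target that set its scale is unknown.

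Processed signals were turned to log2, each array's 75th percentile was subtracted, outlier spots were left out and spots of 1 probe averaged. Probes were named by their accession through a RefSeq table of GRCm38 (28026 with 1 symbol, 0 with several, 27655 unnamed). Of 55681 probes, 26576 were kept, for which 3 or more arrays of 1 group were well above background, and the brightest kept probe stood for a gene, or, for a member with none, its brightest probe. This gave 22344 features, 13697 of them named genes, fitted with limma 3.58.1 in R 4.3.3 (lmFit, eBayes, Benjamini-Hochberg at 0.05). Ratios were tested with exact permutations. The fit was checked on simulated data. Normexp, an alternative, used the median spot intensity. All 10 members were named, with up to 6 genes past the threshold from each pathway list by lowest p, family genes without a passing value, and the 3 genes most like each member past the threshold. Other genes are named because a sentence turns on them, after their values were seen. Members and lists were chosen with earlier results of these data known. The number of arrays limits the precision. Same-numbered KO and control hearts correlated at 0.184, -0.223 and -0.197 in their deviations from the group means, so the numbers were not taken as pairs.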

Additional observations from a re-analysis of the deposited data

How the results depend on the processing

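The count of 5640 features past the threshold became 1414 with no filter on dim probes, of which 31.1% were higher in KO hearts against 40.5% in the main setting, and 9 with the replicate block. The count of 4 members became 2 with no filter (Il1r2, and Il1rn, which was below the background limit in all controls), 2 when probes had to be above background on all 7 arrays (Il1r1 and Il18), and 1 with the replicate block (Il1r2). The count of 13 pathway genes became 2 with no filter and 0 with the replicate block, where 16 had an unadjusted p under 0.05. Leaving out 1 heart at a time gave 69 (without KO 1) to 6970 features (without control 2), 0 to 5 members and 0 to 17 pathway genes, and the features numbered 1138 without KO 2, 2217 without control 4, 2699 without control 3 and 3266 without control 1. Without KO 1 the 0 members (limma) stood beside 4 at an unadjusted p under 0.05, and without KO 2 only Il1r1 passed. Of the features called, 29.0% were higher in KO hearts without KO 1 and 25.9% without KO 2.

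The ratios of Il1b to Il1r2, Il1r1 to Il1r2 and Il18 to Il18bp kept their directions, while their adjusted p rose above 0.05 with normexp correction (-0.99, -1.16 and 1.81), quantile normalization (-2.33, -3.44 and 2.42), the authors' value table (-2.33, -3.44 and 2.42), the replicate block (-2.36, -3.12 and 2.20) and slide row as a block (-2.43, -3.51 and 2.42). With normexp correction, quantile normalization and the authors' value table, the raw p of Il18 to Il18bp stayed at 0.0286 (exact permutation). Its adjusted p rose there because fewer of the 5 pairs shared that smallest p. The smallest raw p is 0.25 with the replicate block and 0.0556 with slide row as a block, so those 2 could not pass. With 1 heart left out, where none could pass, they ranged from -2.83 to -1.62, from -4.08 to -2.64 and from 2.20 to 2.52. The ratio of Il1b to Il1rn turned to 0.66 with normexp correction and ranged from -0.53 to 0.20 with 1 heart left out, being positive without control 3. The 3 ratios with Il1r2 or Il1rn had no value under the filter on all arrays, and variance models do not apply to ratios. Il33 turned to -0.34 without KO 3 and was 0.73 without KO 2. Where 1 of the 4 control hearts stood apart by Dixon's test was checked in 16 sets of values, with 0 found. Causes were not tested. Signal near background limits Il1a, Il1rn, Il18r1, Il1r2 and the control values of Il1b and Il1rap. Among the pathway genes named here it also limits the control values of Mefv, Saa3, Ptgs2 and Il6.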

Other observations

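Control hearts varied among themselves in the same inflammatory genes. Control 4, in which Il1b was not well above background, was the lowest of the 7 hearts for 11 of the 18 tested target genes and for 3 of the 7 tested members. How often control 4 was the lowest heart over all features is not given here. Its array also had the smallest share of probes well above background, 46.0%, against 47.6% to 49.7% on the others. Ccl2, the monocyte chemoattractant gene, was 5.41, 5.38 and 4.42 in KO hearts and 2.26, 3.60, 3.57 and 0.74 in control hearts. Lcn2 was 5.66, 6.56 and 5.64 in KO hearts, against 3.61, 4.52, 3.13 and 1.36 in controls. These values were picked after they were seen, and no test was made.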
